A study of Homo sapiens with 3 samples.

Results

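The genes described here are 9 genes of blood coagulation and clot breakdown that have been linked to the bleeding disorder of acute promyelocytic leukaemia: F3, TFPI, THBD, PROCR, PLAU, PLAUR, SERPINB2, ANXA2 and S100A10. They were picked by symbol alone, and each matched 1 of the 57773 Ensembl gene IDs in the count table. They were measured by sequencing polyadenylated RNA from NB4, an established human cell line of that leukaemia, which expresses the fusion protein PML-RARA. The groups were ARID1B shRNA, with 1 library from hairpin 2 and 1 from hairpin 3, and a non-target control shRNA, with 1 library. ARID1B encodes a subunit of the BAF chromatin remodelling complex. Nothing in the labels says whether the libraries came from separate cultures or infections. The p-values speak only for how far the hairpin libraries differed from each other, and that variation may be technical. The variation of the control was not measured. All groups are the same line grown in serum-containing medium, the labels list no other treatment, and no clotting or fibrinolytic activity was measured.

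As background, clotting starts when tissue factor, the product of F3, meets circulating factor VII, and it is held back by TFPI, which blocks that complex, and by thrombomodulin (THBD) and the endothelial protein C receptor (PROCR), which turn thrombin towards activating protein C. Clots are dissolved by plasmin, made from plasminogen by the urokinase that PLAU encodes, bound at the cell surface to its receptor PLAUR and opposed by the inhibitor SERPINB2. Annexin A2 and its partner S100A10 form a cell surface complex that binds plasminogen and its activators. Leukaemic promyelocytes are known for tissue factor and for annexin A2 at their surface, and patients bleed from a mix of clotting and excess fibrinolysis.

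The libraries held 59997475 and 62954803 counts under hairpins 2 and 3 and 61640692 counts in the control. ARID1B itself had 36.7 and 35.8 CPM (counts scaled to library size, after TMM, a correction for library composition) under hairpins 2 and 3 and 84.9 CPM in the control, which was 43.3% and 42.2% of the control level. Of 9 promyelocyte markers PRTN3 rose and CTSG fell (edgeR), and MPO, the most abundant, had 836096 and 741714 counts under hairpins 2 and 3 and 682719 in the control. ELANE, another marker of this stage, had at most 10 counts in any library, while PRTN3, AZU1 and MPO of the same granules were abundant, so this value is uncertain and is not read as a level of the gene. Markers of endothelium, the usual source of THBD, PROCR and TFPI in tissue, were near absent: their summed level was 0.399 and 0.385 CPM under hairpins 2 and 3 and 0.499 CPM in the control, CDH5, KDR, TEK, EMCN and ROBO4 had at most 3 counts, and PECAM1 was not analysed here. Monocyte and macrophage markers, whose cell types also express several of the 9 genes, moved with the knockdown. Their summed level was 78.3 and 54.0 CPM under hairpins 2 and 3 and 32.4 CPM in the control, and 4 of 7 tested markers rose and 0 fell in edgeR, CD86, FCN1 and CD68 among them. Over all genes tested 5.49% rose and 3.21% fell. DESeq2 called 3 higher and robust empirical Bayes 2, FCN1 being lost in both. CSF1R had 396 and 290 counts under hairpins 2 and 3 and 468 in the control (log2 fold change -0.42 ± 0.219, edgeR adjusted p = 0.295), CD14 had 16 and 13 counts under the hairpins and 5 in the control, and MSR1 had at most 2 in any library. Of 4 tested megakaryocyte markers ITGA2B rose (2738 and 1042 counts under hairpins 2 and 3 and 139 in the control; the call was lost with robust empirical Bayes), while PF4 and GP9 had 0 counts and PPBP at most 2, and 0 of 3 tested stromal or epithelial markers passed (edgeR and DESeq2; 0 at an unadjusted p under 0.05). The epithelial marker EPCAM was not absent, with 1075 and 1370 counts under hairpins 2 and 3 and 1367 in the control. The part of all these markers in the results below was not tested, and in bulk RNA more cells of a type and more RNA per cell cannot be told apart.

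With ARID1B silenced, PLAU rose 1.85-fold and THBD fell to 0.469 of its control level, and these were the members that passed the test. All 9 passed the filter on low counts. For comparison, 8.7% of the 20382 genes tested passed in either direction, 5.49% higher and 3.21% lower (edgeR quasi-likelihood test, Benjamini-Hochberg adjusted p under 0.05). Among 9 genes, 1 higher and 1 lower are too few to be read against those shares. The median log2 fold change was 0.185 over the 9 genes and -0.012 over all genes tested. Both calls ended without a filter on low counts, where 0 of 32925 genes passed (adjusted p = 0.465 for THBD and 0.47 for PLAU in edgeR; 3218 genes had an unadjusted p under 0.05). With 1 control library, the test estimated its spread solely from how far the hairpin libraries differed. For each gene this spread was mostly a value pooled over all genes (14.8 prior degrees of freedom against 1 of the gene itself).

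**Figure D1:**
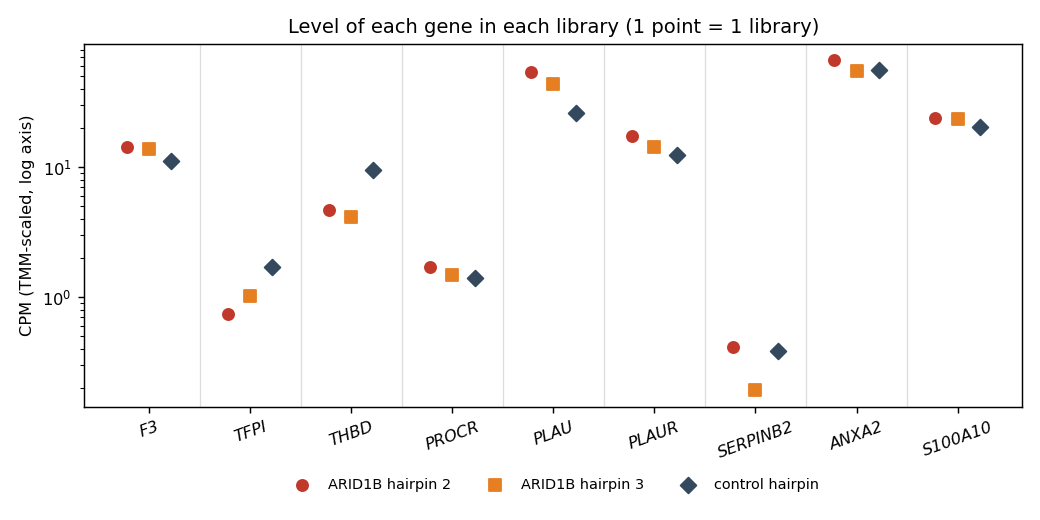
Level of each of the 9 genes in CPM (vertical log axis) in the hairpin 2, hairpin 3 and control libraries, 1 point per library, with genes ordered from clotting (left) to fibrinolysis (right). THBD has 4.72 and 4.17 CPM under the hairpins and 9.49 CPM in the control, and PLAU 54.0 and 43.3 CPM under the hairpins and 26.2 CPM in the control.

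F3, which encodes tissue factor, had 862 and 863 counts under hairpins 2 and 3 and 690 in the control, or 14.3 and 13.8 CPM under the hairpins and 11.1 CPM in the control. Both hairpin libraries were above the control, by ratios of 1.29 (exact 95% counting interval 1.17 to 1.43) and 1.25 (1.13 to 1.38). Reads carry no molecular identifiers, so such intervals cover counting error only. The log2 fold change was 0.34 ± 0.163 (SE) and did not pass over all genes (edgeR adjusted p = 0.248, unadjusted p = 0.0524). The F3 promoter is printed here because the regulation of this gene is the best known of the 9. It is the RefSeq window from 250 bases before to 50 after the gene start on the minus strand of GRCh38.p14, chr1:94541710-94542009. Capitals mark matches, on either strand, to 4 motifs. The SP1 motif was searched as GGGCGG, the letters bound by the general activator of promoters rich in G and C. The EGR motif was searched as GCGGGGGCG, bound by early growth response factors. The AP-1 motif, bound by dimers of the FOS and JUN families, was searched as TGANTCA, and the TATA box as TATAAA.

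F3: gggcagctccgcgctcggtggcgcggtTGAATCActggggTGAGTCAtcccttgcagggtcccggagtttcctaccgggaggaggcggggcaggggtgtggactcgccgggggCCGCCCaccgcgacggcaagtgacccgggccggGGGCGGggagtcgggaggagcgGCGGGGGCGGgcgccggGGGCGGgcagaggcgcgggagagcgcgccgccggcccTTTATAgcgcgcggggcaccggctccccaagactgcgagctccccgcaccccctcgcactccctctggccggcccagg

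The F3 window held 8 matches, namely 2 to AP-1, 1 to EGR, 4 to SP1 and 1 to TATA, and the EGR match shares bases with an SP1 match. Among all 35116 RefSeq windows of the same length, 7.71% held an AP-1, 5.07% an EGR, 45% an SP1 and 11.5% a TATA match. A match is a description of the letters, not a site.

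TFPI, the inhibitor of the tissue factor complex, had 45 and 64 counts under hairpins 2 and 3 and 106 in the control, or 0.749 and 1.03 CPM under the hairpins and 1.71 CPM in the control. Both hairpin libraries were below the control, at 43.8% (exact 95% counting interval 30.2 to 62.7) and 60.1% (43.4 to 82.8) of its level. The log2 fold change of -0.94 ± 0.332 (95% interval -1.64 to -0.24) did not pass over all genes (edgeR adjusted p = 0.1), and it did not pass under any alternative run (adjusted p from 0.0684 to 0.624). Its level was low: per kilobase of exon TFPI ranked at percentile 4.97 and 6.96 of 19359 tested genes under hairpins 2 and 3 and at percentile 10.4 in the control, while F3 ranked at 59.5 and 58.8 under the hairpins and at 54.4 in the control.

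THBD, which encodes thrombomodulin, had 284 and 260 counts under hairpins 2 and 3 and 589 in the control. This was 4.45 ± 0.39 CPM (SD, n = 2) in the ARID1B shRNA libraries and 9.49 CPM in the control. Both hairpin libraries were low, at 49.8% (exact 95% counting interval 43.1 to 57.5) and 44.0% (37.9 to 51.0) of the control, and the intervals of the hairpins overlap each other. THBD fell by 1.09 ± 0.194 (SE) on the log2 scale (edgeR adjusted p = 0.00169), and it also passed in DESeq2 (adjusted p = 0.0102). Thrombomodulin binds thrombin and turns it from clotting towards activating protein C.

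PROCR, the receptor that presents protein C to the thrombin and thrombomodulin complex, had 103 and 92 counts under hairpins 2 and 3 and 87 in the control. The libraries lay close together, at 1.71 and 1.48 CPM under the hairpins and 1.40 CPM in the control. Its log2 fold change was 0.19 ± 0.312 (95% interval -0.48 to 0.85, edgeR adjusted p = 0.806). Whether PROCR and THBD differed in their change was not tested.

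Within each library the ratio of F3 to THBD reads per kilobase was 4.34 under hairpin 2 (exact 95% counting interval 3.79 to 4.98) and 4.74 under hairpin 3 (4.12 to 5.47), against 1.67 in the control (1.5 to 1.87). The ratio of F3 to TFPI was 78.0 under hairpin 2 (57.8 to 108) and 54.9 under hairpin 3 (42.6 to 72.0), against 26.5 in the control (21.6 to 32.9). In both ratios the counting intervals of the hairpin libraries lay above that of the control. The exon lengths used set the size of these ratios, but not how the libraries compare.

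**Figure D2:**
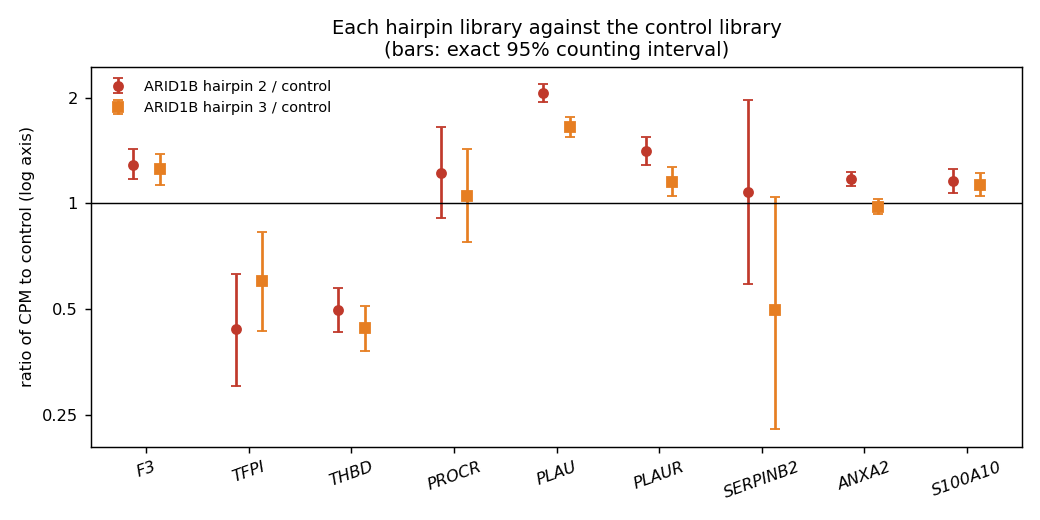
Ratio of CPM in each ARID1B hairpin library to the control library (vertical log axis) for the 9 genes, with exact 95% counting intervals. Both points lie above 1 for PLAU, at 2.06 and 1.65, and both lie below 1 for TFPI and THBD, while the points of SERPINB2 and ANXA2 lie on different sides of 1.

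PLAU, which encodes urokinase, had 3244 and 2698 counts under hairpins 2 and 3 and 1628 in the control. This was 48.6 ± 7.54 CPM (SD, n = 2) in the ARID1B shRNA libraries and 26.2 CPM in the control. Both hairpin libraries were high, hairpin 2 more so, at 2.06 (exact 95% counting interval 1.94 to 2.19) and 1.65 (1.55 to 1.76) times the control, and hairpin 2 stood at 1.25 (1.18 to 1.31) times hairpin 3. PLAU rose by 0.89 ± 0.155 (SE) on the log2 scale (edgeR adjusted p = 0.00148; DESeq2 adjusted p = 3.37e-04). C10orf55, a gene annotated on the other strand across 31.1% of the exon length of PLAU, had 1183 and 988 counts under hairpins 2 and 3 and 610 in the control, or 2 and 1.61 times the control. Whether reads were counted by strand is not given in the sources used here, so reads of this pair cannot be told apart.

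PLAUR, the receptor that holds urokinase at the cell surface, had 1053 and 890 counts under hairpins 2 and 3 and 769 in the control, or 17.5 and 14.3 CPM under the hairpins and 12.4 CPM in the control. Both hairpin libraries were above the control, at 1.41 (exact 95% counting interval 1.29 to 1.55) and 1.15 (1.05 to 1.27) times its level, with hairpin 2 again the higher. Its log2 fold change of 0.36 ± 0.171 did not pass (edgeR adjusted p = 0.248). The ratio of PLAU to PLAUR reads per kilobase was 4.65 under hairpin 2 (4.34 to 4.99) and 4.58 under hairpin 3 (4.24 to 4.95), against 3.2 in the control (2.93 to 3.49).

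The promoter windows of this ligand and its receptor, of which the first passed and the second did not, are printed for comparison. RefSeq lists 2 starts for PLAU, and the second is shown, on the plus strand of GRCh38.p14 at chr10:73910882-73911181. The PLAUR window lies on the minus strand at chr19:43670120-43670419. Capitals mark SP1 matches in PLAU and an AP-1 match in PLAUR.

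PLAU: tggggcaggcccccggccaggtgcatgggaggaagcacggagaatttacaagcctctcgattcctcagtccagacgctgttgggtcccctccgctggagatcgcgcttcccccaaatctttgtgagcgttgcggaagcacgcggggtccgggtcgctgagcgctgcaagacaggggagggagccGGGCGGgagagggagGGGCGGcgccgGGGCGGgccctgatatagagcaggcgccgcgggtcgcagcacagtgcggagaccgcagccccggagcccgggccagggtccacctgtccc

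PLAUR: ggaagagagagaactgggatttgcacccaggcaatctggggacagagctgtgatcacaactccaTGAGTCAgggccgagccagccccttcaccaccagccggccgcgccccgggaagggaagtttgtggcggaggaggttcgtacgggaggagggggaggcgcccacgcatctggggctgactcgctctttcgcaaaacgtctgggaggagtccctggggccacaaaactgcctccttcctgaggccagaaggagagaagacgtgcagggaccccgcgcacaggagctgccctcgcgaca

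The second PLAU window held 3 SP1 matches and no other, and the first PLAU window held no match to any motif searched. The PLAUR window held 1 AP-1 match. RefSeq windows were found for 8 of the 9 genes, THBD being the one not found. Among the 9 windows of those genes, 4 held an AP-1 match (F3, PLAUR, SERPINB2 and ANXA2), 5 an SP1 match, 4 a TATA match, 2 the core element of retinoic acid receptors (AGGTCA, in SERPINB2 and TFPI), 1 an EGR match and 0 the NF-kB motif. The core element was in 13.8% and the NF-kB motif in 0.558% of all windows.

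**Figure D3:**
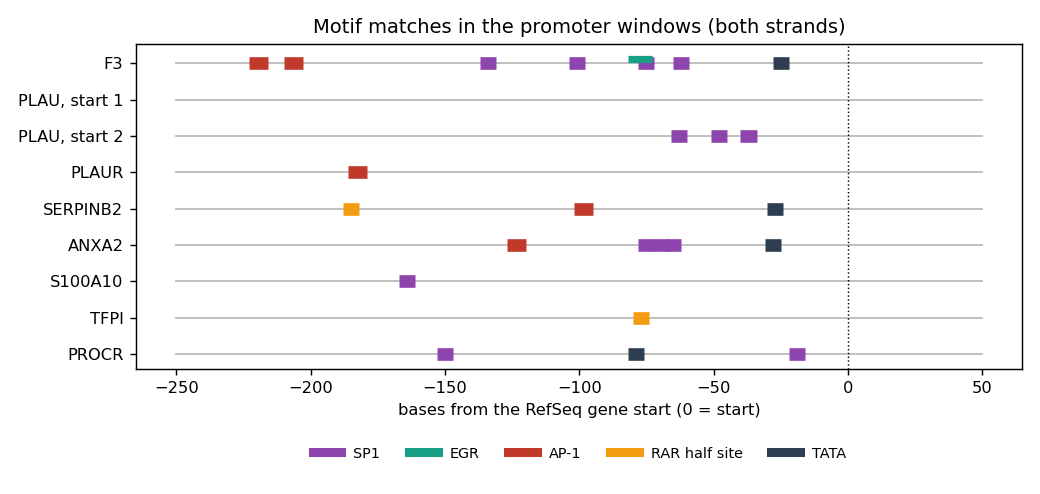
Matches to 5 motifs, on either strand, in the RefSeq promoter windows of 8 genes (PLAU with 2 starts), drawn by distance in bases from the gene start (horizontal axis, dotted line at the start). F3 has 8 matches and the first start of PLAU has none.

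SERPINB2, an inhibitor of urokinase that is made by activated monocytes, was barely detected, with 25 and 12 counts under hairpins 2 and 3 and 24 in the control. Hairpin 2 lay near the control and hairpin 3 below both, with hairpin 2 at 2.16 times hairpin 3 (exact 95% counting interval 1.05 to 4.72). Its log2 fold change of -0.35 ± 0.548 (95% interval -1.51 to 0.81, edgeR adjusted p = 0.786) leaves a wide range at this depth. SERPINB10 shares 19.9% of the exon length of SERPINB2 on the same strand, and it fell by 1.38 ± 0.265 on the log2 scale (edgeR adjusted p = 0.00313), with 123 and 88 counts under the hairpins and 280 in the control. How reads in the shared part were divided is not given in the sources used here.

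ANXA2, the annexin of the plasminogen-binding complex, had the most counts of the 9, with 3976 and 3433 under hairpins 2 and 3 and 3497 in the control. This was 66.1 and 55.1 CPM under the hairpins and 56.3 CPM in the control, so that hairpin 3 lay at the control level and hairpin 2 above both. Its log2 fold change was 0.11 ± 0.141 (95% interval -0.19 to 0.40, edgeR adjusted p = 0.748). Processed copies of ANXA2 could take some of its reads: the transcript of ANXA2P2 matched ANXA2 at 98.4% of 1020 aligned bases. ANXA2P2 had only 17 and 7 counts under hairpins 2 and 3 and 8 in the control, and ANXA2P1 and ANXA2P3 had at most 1.

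S100A10, whose protein binds annexin A2 and carries the plasminogen-binding end, had 1430 and 1449 counts under hairpins 2 and 3 and 1275 in the control, or 23.8 and 23.3 CPM under the hairpins and 20.5 CPM in the control. Both hairpin libraries were slightly above the control, at 1.16 (exact 95% counting interval 1.07 to 1.25) and 1.13 (1.05 to 1.22) times its level. The log2 fold change was 0.20 ± 0.144 (95% interval -0.11 to 0.50, edgeR adjusted p = 0.502), and its interval, like that of ANXA2, does not reach a 2-fold change. The ratio of ANXA2 to S100A10 reads per kilobase was 0.486 under hairpin 2 and 0.414 under hairpin 3, against 0.480 in the control, so hairpin 3 stood apart from the other libraries in this ratio beyond counting error (0.390 to 0.441, against 0.450 to 0.512 in the control). The size of this ratio depends on the exon lengths used. With the longest transcripts ANXA2 stood at 16 and S100A10 at 17.1 CPM per kilobase in the control.

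**Figure D4:**
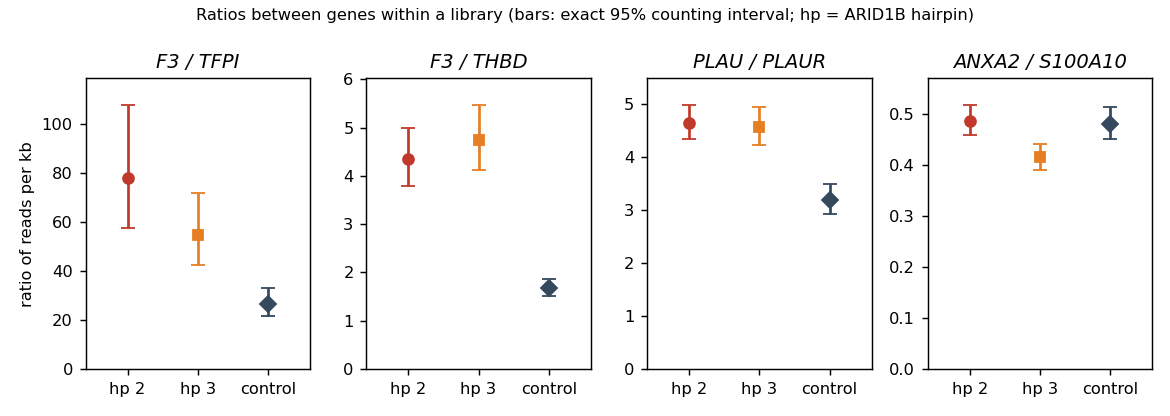
Ratio of reads per kilobase between pairs of genes within each library (vertical axes from 0), with exact 95% counting intervals, for the hairpin 2, hairpin 3 and control libraries. F3 over TFPI, F3 over THBD and PLAU over PLAUR are higher in both hairpin libraries than in the control, and ANXA2 over S100A10 lies between 0.414 and 0.486.

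Levels were compared between genes as CPM per kilobase of exon. In the ARID1B shRNA libraries PLAU (16.5 ± 2.56, SD, n = 2) and S100A10 (15.2 ± 0.246) were highest and did not differ beyond their spread, followed by ANXA2 (6.87 ± 0.886), F3 (4.90 ± 0.121), PLAUR (3.57 ± 0.513), THBD (1.08 ± 0.095), PROCR (0.940 ± 0.0988), SERPINB2 (0.111 ± 0.0575) and TFPI (0.0758 ± 0.0168). In the control S100A10 was highest at 13.3, then PLAU at 8.89, ANXA2 at 6.38, F3 at 3.87, PLAUR at 2.78, THBD at 2.31, PROCR at 0.826, TFPI at 0.146 and SERPINB2 at 0.141. THBD and PROCR, and SERPINB2 and TFPI, were neighbours within their spread under the hairpins. With the length of the longest transcript in place of all exons, PLAUR stood above F3 in every library (10.9 and 8.87 against 6.27 and 6.05 under hairpins 2 and 3, and 7.69 against 4.86 in the control). ANXA2 then stayed below PLAU under the hairpins (18.7 and 15.6 against 20.3 and 16.3) and moved above it in the control (16 against 9.87). S100A10 then stood at 17.1 in the control. The exons of ANXA2 spanned 8824 bases, its longest transcript 3528 and its longest protein-coding transcript 1676. The place of ANXA2 in this order therefore depends on the length used and is not settled here. PLAU ranked at percentile 84.9 and 81.5 of tested genes per kilobase under hairpins 2 and 3 and at percentile 72 in the control. THBD ranked at percentile 34.2 and 32.5 under the hairpins and at percentile 44.9 in the control.

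Among the other genes of clotting, 2 of 11 tested coagulation factors and their maturation genes rose and 0 fell (edgeR; 1 had an unadjusted p under 0.05 on the lower side, and DESeq2 called 1 higher and 0 lower). Of all genes tested, 5.49% rose and 3.21% fell. At an unadjusted p under 0.05 (edgeR), 2316 of the 20382 genes tested were higher and 1910 lower, and the unadjusted counts of the lists below stand beside these. The 1 factor on the lower side, F13A1, had 1 and 3 counts under hairpins 2 and 3 and 12 in the control. It passed the filter on low counts only through the control, where it was higher. F12, which encodes factor XII of the contact pathway, rose by 1.84 ± 0.218 on the log2 scale (edgeR adjusted p = 4.9e-05), with 886 and 697 counts under hairpins 2 and 3 and 225 in the control. VKORC1, which recycles vitamin K for the maturation of clotting factors, rose by 0.46 ± 0.139 (adjusted p = 0.0495), a call at the threshold that was lost in 6 of 9 alternatives run. The factor VII gene F7, the partner of tissue factor, had 0 counts throughout, and with 3 counts as the limit this leaves up to 0.05, 0.0477 and 0.0487 CPM under hairpin 2, hairpin 3 and the control. The receptor F2RL3, through which thrombin signals, rose by 2 ± 0.231 (edgeR adjusted p = 3.9e-05), with 529 and 488 counts under hairpins 2 and 3 and 129 in the control. The other tested receptor of that family, F2R, had a log2 fold change of 0.35 ± 0.416 and did not pass.

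None of 5 tested anticoagulant genes outside the 9 passed, against 8.7% of all genes tested (edgeR; 1 was higher and 1 lower at an unadjusted p under 0.05, and DESeq2 called 0). PROC, which encodes protein C, the substrate activated through THBD and PROCR, had 51 and 73 counts under hairpins 2 and 3 and 28 in the control (edgeR adjusted p = 0.119). PROS1, its cofactor protein S, had 6 and 5 counts under hairpins 2 and 3 and 22 in the control (edgeR adjusted p = 0.0745). PROS1 was the 1 lower at an unadjusted p under 0.05, and it passed the filter on low counts only through the control, where it was higher. ANXA5 and SERPINE2, the members with the highest levels, had log2 fold changes of -0.18 ± 0.127 and 0.25 ± 0.177.

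Among the other fibrinolysis genes 0 of 5 tested passed, against 8.7% of all genes tested (edgeR; 1 was higher at an unadjusted p under 0.05, and DESeq2 called 0). The tissue plasminogen activator gene PLAT had 11 and 9 counts under hairpins 2 and 3 and 10 in the control, far below the counts of PLAU. SERPINF2, the inhibitor of plasmin, had 53 and 48 counts under hairpins 2 and 3 and 26 in the control (edgeR adjusted p = 0.21). Of the plasminogen receptors outside the annexin complex, ENO1 had a log2 fold change of 0.02 ± 0.186 and PLGRKT of -0.48 ± 0.188, and neither passed (edgeR; PLGRKT had an unadjusted p under 0.05, and DESeq2 called 0).

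Of 14 tested co-receptors, ligands and clearance receptors of PLAUR, 6 rose and 0 fell, with a median log2 fold change of 0.844 against -0.012 over all genes tested (edgeR; 1 was lower at an unadjusted p under 0.05, DESeq2 called 4 higher and 0 lower, and with upper quartile factors or library size alone 1 was called lower). With a mean CPM of at least 1, 4 of the list were called higher. FPR1, FPR3 and LRP1 passed the filter on low counts only through the hairpin libraries, where they were higher. The count and the median therefore lean towards rises. Over all genes tested 5.49% rose and 3.21% fell. ITGB2 and ITGAM, the chains of the integrin that binds PLAUR at the surface of myeloid cells, rose by 1.36 ± 0.163 (edgeR adjusted p = 5.2e-05) and 1.67 ± 0.315 (adjusted p = 0.00276). ITGAM had 892 and 463 counts under hairpins 2 and 3 and 217 in the control, and its call was also lost in DESeq2 and with robust empirical Bayes. MRC2, a collagen receptor that associates with PLAUR, rose by 1.19 ± 0.154, with 27365 and 24598 counts under hairpins 2 and 3 and 11558 in the control (edgeR adjusted p = 1.0e-04). The formyl peptide receptors FPR1 and FPR2, which cleaved PLAUR can engage, rose by 3.40 ± 0.771 and 2.72 ± 0.554 (edgeR adjusted p = 0.0102 and 0.00486). FPR1 had 74 and 32 counts under hairpins 2 and 3 and 5 in the control, and FPR2 had 140 and 68 counts under the hairpins and 16 in the control. Hairpin 3 alone gave smaller log2 CPM differences from the control, 2.27 for FPR1 and 1.95 for FPR2 (prior count 2), against 3.48 and 3.02 for hairpin 2. FPR3 had 26 and 7 counts under hairpins 2 and 3 and 0 in the control, and its call was lost in DESeq2 and with robust empirical Bayes. ITGAM, ITGB2 and the formyl peptide receptors are also genes of mature myeloid cells, whose monocyte markers moved as given above.

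Of 12 genes for lipid scramblases, flippases and protein disulfide isomerases, which bear on whether surface tissue factor is active, 3 rose and 0 fell (edgeR; 0 were lower at an unadjusted p under 0.05, and DESeq2 called 3 higher and 0 lower). The 3 were the isomerases PDIA3 (0.90 ± 0.161), PDIA6 (0.79 ± 0.144) and P4HB (0.71 ± 0.172), all general folding enzymes of the endoplasmic reticulum. P4HB was not called with a mean CPM of at least 1, where 2 of the list rose. Of 7 tested leukocyte and matrix proteases that can cut fibrin or fibrinogen, 3 rose (MMP9, PRTN3 and CTSD, by 2.23, 2.11 and 1.61 on the log2 scale) and 1 fell (CTSG, -1.81). DESeq2 also called 3 higher and 1 lower. At an unadjusted p under 0.05 (edgeR) 3 were higher and 2 lower, the second being ELANE. ELANE is among the 7 tested, but it passed the filter on low counts only through the control, and its value is uncertain, as given above. Both lists stand beside shares of 5.49% higher and 3.21% lower over all genes tested.

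**Figure D5:**
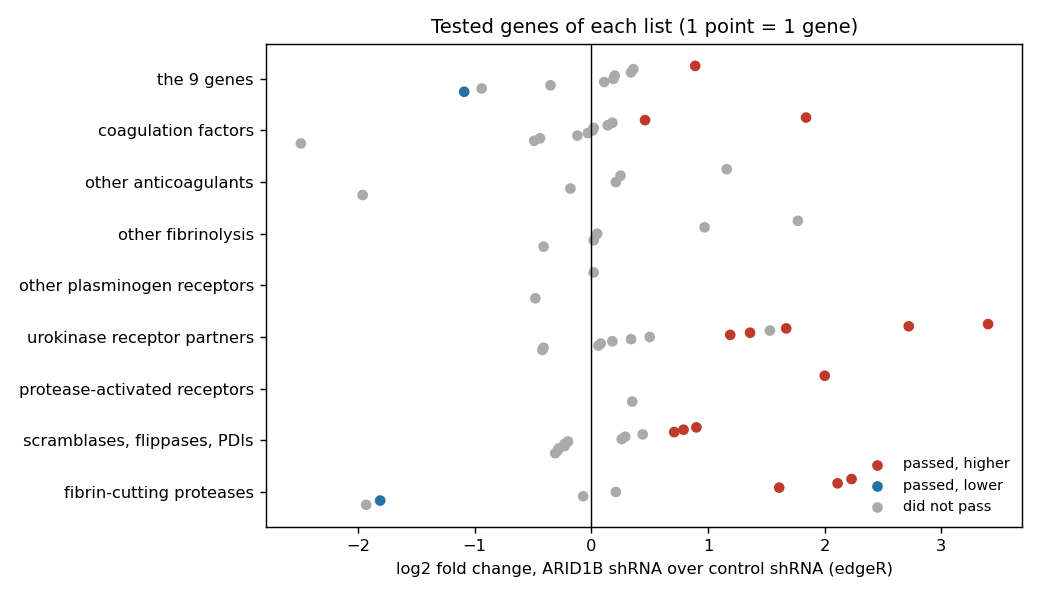
Log2 fold change (horizontal axis, ARID1B shRNA over control shRNA, edgeR) of each tested gene of the 9 genes and of 8 further lists, coloured by whether it passed the test. FPR3, with 0 control counts, is not drawn, and most genes that passed lie to the right of 0, the exceptions being THBD and CTSG. ELANE, whose value is uncertain, is drawn among the proteases.

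Listed as regulators of the promoters of the 9 genes were 20 genes, namely transcription factors and PML, a partner in the fusion. Of these, 2 rose and 2 fell, 10% each way, against 5.49% and 3.21% of all genes tested (DESeq2 called 1 higher and 2 lower). At an unadjusted p under 0.05 (edgeR) 2 were higher and 6 lower, against 2316 higher and 1910 lower of all 20382 genes tested. The median log2 fold change was -0.187, against -0.012 over all genes tested. KLF2, an activator of THBD in endothelium, rose by 1.62 ± 0.377 (edgeR adjusted p = 0.012; 94 and 107 counts under hairpins 2 and 3 and 33 in the control), a call lost in DESeq2. ETS1 rose by 0.86 ± 0.139 (adjusted p = 7.7e-04), and the AP-1 subunits JUN and JUND fell by 0.91 ± 0.164 and 0.87 ± 0.13 (adjusted p = 0.00191 and 3.7e-04). RARA, part of the fusion of these cells, was measured with 1925 and 1754 counts under hairpins 2 and 3 and 2047 in the control. Reads of the fusion and of the normal gene were not separated.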

How the data were processed

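The authors deposited a table of raw read counts per Ensembl gene ID, 1 column per library and not normalized. STAR, featureCounts, Cufflinks and the build hg19 are named per the submitters' processing notes; their versions, the annotation and strand use were not found in those sources. GENCODE 29 and RefSeq, on another build, gave names (52338 of 57773 IDs), exon lengths, overlaps and promoter sequences (RefSeq, GRCh38.p14). The analysis used edgeR 4.0.16 under R 4.3.3: filterByExpr (minimum count 10), TMM factors, glmQLFit with legacy = FALSE and glmQLFTest, 2 ARID1B shRNA libraries against 1 control, two-sided, Benjamini-Hochberg adjusted over all 20382 genes tested, threshold 0.05. The fit had 1 residual degree of freedom and 14.8 prior degrees of freedom pooled over all genes, and the lone control was assumed to vary like the hairpins. Intervals of log2 fold changes use its standard errors. Single libraries were compared by CPM ratio with exact conditional binomial intervals, without a test; 3 counts correspond to 0.0477 to 0.05 CPM. On data simulated for this comparison (19920 genes), 81% of 100 genes changed 2-fold and 99% of 100 changed 4-fold were recovered, and 7.69% of the calls were false, above the nominal 5%. Alternatives were DESeq2 1.42.0, other scalings, filters and fits, and leaving out each hairpin. Named genes were ARID1B, the 9 genes, and up to 4 genes per list that passed with a mean CPM of at least 1, or the 2 of highest level where none passed; genes named beyond this rule were chosen after their values were seen. The 9 genes and the lists were chosen with earlier results of these data known. Results for some listed genes are not reported here.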

Additional observations from a re-analysis of the deposited data

How the results depend on the processing

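The calls of THBD (lower) and PLAU (higher) held in 7 of 9 alternatives with a test: DESeq2, legacy and robust fits, 3 other scalings and a mean CPM of at least 1. They were lost without a filter on low counts, where 0 of the 9 genes and 0 of 32925 genes passed (edgeR; 3218 at an unadjusted p under 0.05), and in the legacy fit without that filter, which was added once the data had been seen (0 of the 9 genes; adjusted p = 0.0621 for THBD and 0.0837 for PLAU; 218 genes higher and 109 lower). No other of the 9 genes passed under any alternative. Over all genes 622 were higher and 338 lower with a mean CPM of at least 1, against 1119 and 655, and DESeq2 called 277 lower; the cause was not tested. Without hairpin 2 or without hairpin 3 the log2 fold change ranged from -1.19 to -1.01 for THBD, from 0.72 to 1.04 for PLAU and from -1.19 to -0.73 for TFPI, as values with no test. No paired analysis was possible because there was 1 control library and the labels state no pairing. Depth limits SERPINB2, TFPI and PROCR, with 12 to 106 counts per library.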

Other observations

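Relatives of the 9 genes were described for context, beside 5.49% higher and 3.21% lower over all genes tested. Of 8 other tested annexins 1 fell and 0 rose (edgeR; 0 were higher at an unadjusted p under 0.05, and DESeq2 called 1 lower): ANXA4, a calcium-dependent membrane-binding protein, fell by 1.10 ± 0.155 on the log2 scale (edgeR adjusted p = 2.1e-04), with 597 and 592 counts under hairpins 2 and 3 and 1297 in the control. Of 3 tested clade B serpins other than SERPINB2, SERPINB10 fell, as given above. In the family of the domain that builds the urokinase receptor, CD59, which shields cells from complement, had a log2 fold change of 0.27 ± 0.155 and did not pass. LYPD1, of the same family, had 85 and 22 counts under hairpins 2 and 3 and 2 in the control. It passed the filter on low counts only through the hairpin libraries, where it was higher. Its call (edgeR adjusted p = 0.0145) was lost with robust empirical Bayes and without that filter. With a mean CPM of at least 1 it was not tested.

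The hairpins differed from each other beyond counting error in PLAU (hairpin 2 over hairpin 3, ratio 1.25), PLAUR (1.23, exact 95% counting interval 1.12 to 1.34), ANXA2 (1.20, 1.15 to 1.26) and SERPINB2 (2.16). In F3, THBD, S100A10, TFPI and PROCR the interval of that ratio included 1. The monocyte and macrophage markers were also higher in sum under hairpin 2 than under hairpin 3, at 78.3 and 54.0 CPM, while ARID1B stood at nearly the same level in both (ratio 1.03, 0.966 to 1.09). Whether these differences belong to the hairpins or to the single libraries cannot be told apart.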
